A study of Homo sapiens with 8 samples.

Results

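PAQR5, the membrane progestin receptor gamma, read about 1.95-fold higher with podofilox than in control AGS gastric cancer cells on its brightest probe set. Its other probe sets gave 1.47-fold and 2.40-fold. The relatives of PAQR5 went different ways. PAQR3 rose, PAQR8 fell, PAQR4 fell at the edge of the test, and PAQR6, PAQR7 and PGRMC2 did not pass it. The genes described are the membrane progestin receptor family and its closest relatives, PAQR3 to PAQR8, with the heme-binding progesterone receptor membrane components PGRMC1 and PGRMC2. All probe sets that the platform annotation assigns to exactly 1 of these genes were taken, which gave 25 probe sets of 7 genes out of 44988 probe sets of 18132 genes. PGRMC1 was not analysed here. PAQR5 was selected on its difference between podofilox and control on these same arrays, which was rank 7 of all genes, so its values are given as a description with no test. The other genes were listed by family name, with results of these data already known.

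Messenger RNA was measured on 8 Affymetrix arrays. The control group is 4 arrays of AGS, an established line of human gastric adenocarcinoma cells, and the podofilox group is 4 arrays of the same line treated with 3.4 nM podofilox for 72 hours. Podofilox, or podophyllotoxin, binds tubulin and keeps microtubules from assembling. Both groups were grown in medium with fetal bovine serum. The dose and time stand in protocol text given alike for all samples, and the groups follow the treatment label. The labels name no progestin treatment, do not say whether control cells received the drug's solvent, and do not say whether the arrays of a group came from separate cultures. The p-values therefore measure array-to-array spread alone, and that spread may be technical.

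Receptors of the PAQR (progestin and adipoQ receptor) family are multi-pass membrane proteins. PAQR5, PAQR6, PAQR7, PAQR8 and PAQR9 bind progesterone at the cell surface and act quickly, through G proteins and cyclic AMP, whereas the nuclear receptor encoded by PGR acts by switching genes on and off. PAQR3 and PAQR4 belong to the same family by sequence but are not known mainly as hormone receptors. PAQR3 sits in the Golgi and holds RAF kinases there, away from the growth factor cascade, and PAQR4 has been described as a partner of the cell cycle kinase CDK4. PGRMC1 and PGRMC2 are unrelated to the PAQR proteins. They are heme carriers with a fold like that of cytochrome b5.

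Levels are log2 expression values as deposited, and each difference is the podofilox mean less the control mean. Over all 49395 deposited probe sets, controls included, the medians of the 8 arrays lay between 6.39 and 6.45. Over all genes, arrays of 1 group correlated at 0.997 to 0.999. Of 6 epithelial markers, the keratins KRT8, KRT18 and KRT19 among them, all lay between 11.58 and 13.29 on control arrays, and 2 rose, both claudins: CLDN4 by 0.50 and CLDN7 by 0.37 (limma, adjusted p = 3.36e-05 and 0.000219). Among all genes 8.55% rose and 12.5% fell. For so few markers this count and those below are no difference to read. The summed level of the 6 epithelial markers was 76.23 to 76.56 on control arrays and 77.33 to 77.61 on podofilox arrays. The 6 fibroblast markers lay between 3.0 and 6.09 on control arrays and 0 rose or fell, the 5 measured immune markers likewise had 0 calls, and of 5 endothelial markers CDH5 fell by 0.44 at a low signal of 5.24. Its other probe set differed by 0.21, the mean of both by -0.12 (limma adjusted p = 0.350), and the call was lost in 5 of 18 alternatives, among them without podofilox array 2 (-0.43, adjusted p = 0.0520) and without podofilox array 3 (-0.43, adjusted p = 0.0506). LYZ, lysozyme, which gastric epithelium also makes, was the exception among the immune markers in level, at 13.60 ± 0.061 in control cells. The 18S ribosomal RNA control at its 3′ end was lower with podofilox, at 12.43 to 12.98 against 13.32 to 13.70, and so was the one in its middle, at 11.66 to 12.04 against 12.26 to 12.69. The one at its 5′ end overlapped, at 11.93 to 12.25 against 12.17 to 12.36. The 3′ less 5′ difference, a sign of RNA breakdown, overlapped for ACTB (0.11 to 0.26 with podofilox, 0.12 to 0.20 in control) and for GAPDH (-0.16 to -0.11 and -0.13 to -0.08). The part of these shifts in the results was not tested.

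PAQR5 was higher with podofilox on all 3 of its probe sets, with no overlap between the groups on any of them. The groups did not overlap on 24.2% of all probe sets. As PAQR5 was selected on its rise on these arrays, its lack of overlap is a description and no support. On the brightest, 11741952_x_at, control arrays 1 to 4 read 6.25, 5.85, 6.03 and 5.97, and podofilox arrays 1 to 4 read 6.99, 6.96, 7.05 and 6.96. The control arrays spread widely (SD 0.17) and the podofilox arrays lay close together (SD 0.044). The difference was 0.96 (limma's moderated SE 0.077, n = 4 each). It was 0.92 among arrays numbered 1 and 2 and 1.01 among arrays numbered 3 and 4. In bulk RNA, more cells that express PAQR5 and more RNA in each cell cannot be told apart.

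The size of the PAQR5 difference depended on the probe set. On 11740482_a_at the control arrays read 5.97, 5.84, 5.97 and 5.94 and the podofilox arrays 6.45, 6.46, 6.49 and 6.52, a difference of 0.55 (SE 0.047) or 1.47-fold. On 11740481_x_at the controls read 5.30, 5.39, 5.14 and 5.26 and the podofilox arrays 6.54, 6.53, 6.70 and 6.36, a difference of 1.26 (SE 0.077) or 2.40-fold. The pair with larger differences are of the _x_at kind, whose probes can also bind other transcripts, and without such probe sets the gene rests on 0.55. The mean of the brightest probe set over all arrays, 6.51, lay below 6.99, the median of the gene means.

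**Figure D1:**
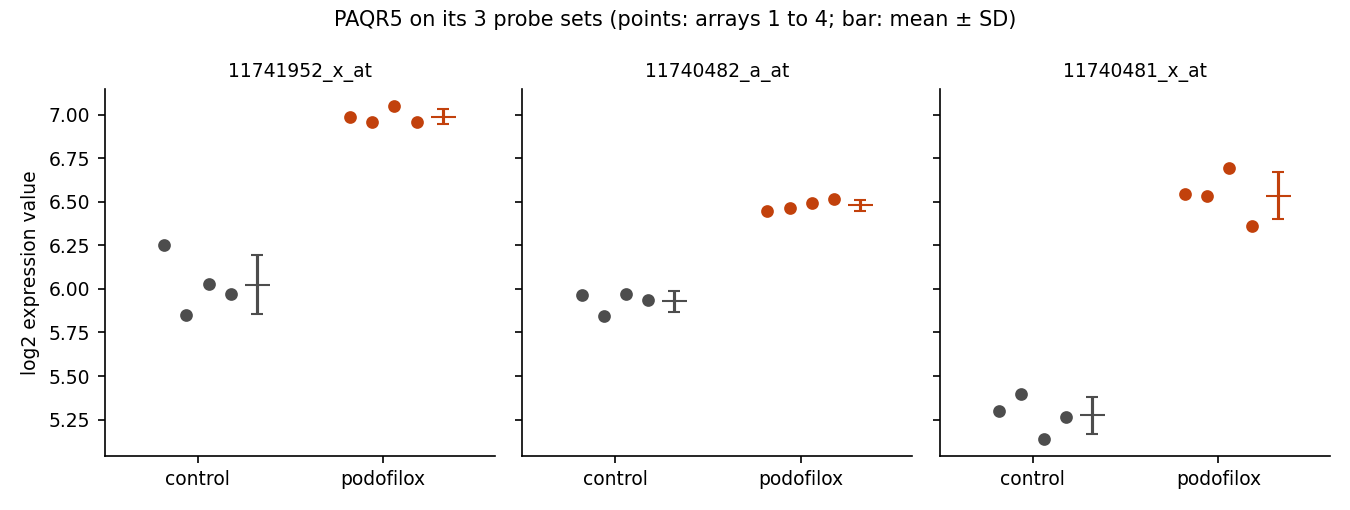
Log2 expression value of PAQR5 (vertical axis) on each of its 3 probe sets, with a point for each of arrays 1 to 4 per group in numerical order and a bar for the mean ± SD. On every probe set all 4 podofilox arrays lie above all 4 control arrays, and the step is smallest on 11740482_a_at (0.55) and largest on 11740481_x_at (1.26).

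PAQR3, which keeps RAF kinases at the Golgi, rose. Its brightest probe set, 11725820_s_at, gave 8.59, 8.65, 8.52 and 8.53 for control arrays 1 to 4, and 8.97, 8.92, 9.12 and 8.92 for those with podofilox. Every podofilox array lay above every control array. The difference was 0.41 (SE 0.057, 1.33-fold, limma adjusted p = 0.000794 over all genes), and it was 0.32 among arrays 1 and 2 and 0.50 among arrays 3 and 4. Of the 6 probe sets of PAQR3, which are not independent, 4 rose, by 0.32 to 0.48, and in each of these the groups did not overlap. Of all probe sets 7.83% rose, and on 24.2% the groups did not overlap. The 2 other PAQR3 probe sets are the dimmest. Probe set 11725818_a_at differed by 0.24 (limma adjusted p = 0.118), with control array 2 at 6.60 above all podofilox arrays, and 11763887_s_at, at 3.49 in both groups, by -0.00085. Without control array 2 the former passed (0.34, limma adjusted p = 0.00189). In the 9 others of its 10 alternatives it did not pass (highest limma adjusted p = 0.2545).

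PAQR8, the membrane progestin receptor beta, fell. On its brightest probe set, 11745840_a_at, control arrays 1 to 4 read 10.18, 10.16, 10.19 and 10.17 and podofilox arrays 1 to 4 read 9.99, 9.95, 9.75 and 9.82. The control arrays were nearly level (SD 0.012), while podofilox arrays 3 and 4 lay lower than 1 and 2. The difference was -0.30 (SE 0.056, 1.23-fold lower, limma adjusted p = 0.00414). It came to -0.20 among arrays 1 and 2, where the call was lost (limma adjusted p = 0.1055), and to -0.39 among arrays 3 and 4 (limma adjusted p = 0.0185). All 3 probe sets, which are not independent, fell, and all with groups that did not overlap. Of all probe sets 10.2% fell, and on 24.2% the groups did not overlap. Probe set 11725473_a_at went from 9.42 ± 0.022 to 9.15 ± 0.048 (SD, n = 4 each), and 11725472_a_at from 9.41 ± 0.046 to 9.05 ± 0.14. None of the 3 PAQR8 probe sets is of the _x_at or _s_at kind.

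PAQR6 and PAQR7, the membrane progestin receptors delta and alpha, did not pass the test. The brightest PAQR6 probe set read 6.96, 7.08, 7.02 and 6.92 on the control arrays and 7.05, 7.05, 7.07 and 7.06 on the podofilox arrays, a difference of 0.06 (95% interval -0.04 to 0.16, limma adjusted p = 0.409). The 3 other PAQR6 probe sets differed by -0.14 to -0.03, so the sign was not shared. For PAQR7, control arrays read 6.75, 6.99, 6.91 and 6.85 and podofilox arrays 6.90, 6.80, 6.90 and 6.88, a difference of -0.0053 (95% interval -0.13 to 0.12, limma adjusted p = 0.960). The groups overlapped on all probe sets of both genes. The intervals bound any difference on these probe sets but do not show that the genes were level.

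PAQR4 was at the edge of the test. Its brightest probe set, 11718797_a_at, read 8.77, 8.81, 8.75 and 8.71 on the control arrays and 8.56, 8.62, 8.51 and 8.70 on the podofilox arrays. All podofilox values were below the control values, although podofilox array 4 missed the lowest control by little. The difference of -0.16 (SE 0.051) passed over all genes (limma adjusted p = 0.0449) but not over all probe sets (adjusted p = 0.0567). The call was lost on leaving out any 1 array other than podofilox array 4 (adjusted p from 0.0700 to 0.0969 in those 7 fits) and in 9 of the other 11 alternatives. The 4 other PAQR4 probe sets overlapped between the groups and differed by -0.08 to 0.05.

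PGRMC2, which carries heme to the nucleus, was not called. Its brightest probe set read 9.38, 9.49, 9.51 and 9.49 on the control arrays and 9.60, 9.62, 9.49 and 9.49 on the podofilox arrays. Podofilox arrays 1 and 2 lay above every control array and arrays 3 and 4 lay among them, so the difference was 0.17 in the first pair and -0.0094 in the second. Over all arrays it was 0.08 (95% interval -0.03 to 0.19, limma adjusted p = 0.290), and on the other probe set 0.10.

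**Figure D2:**
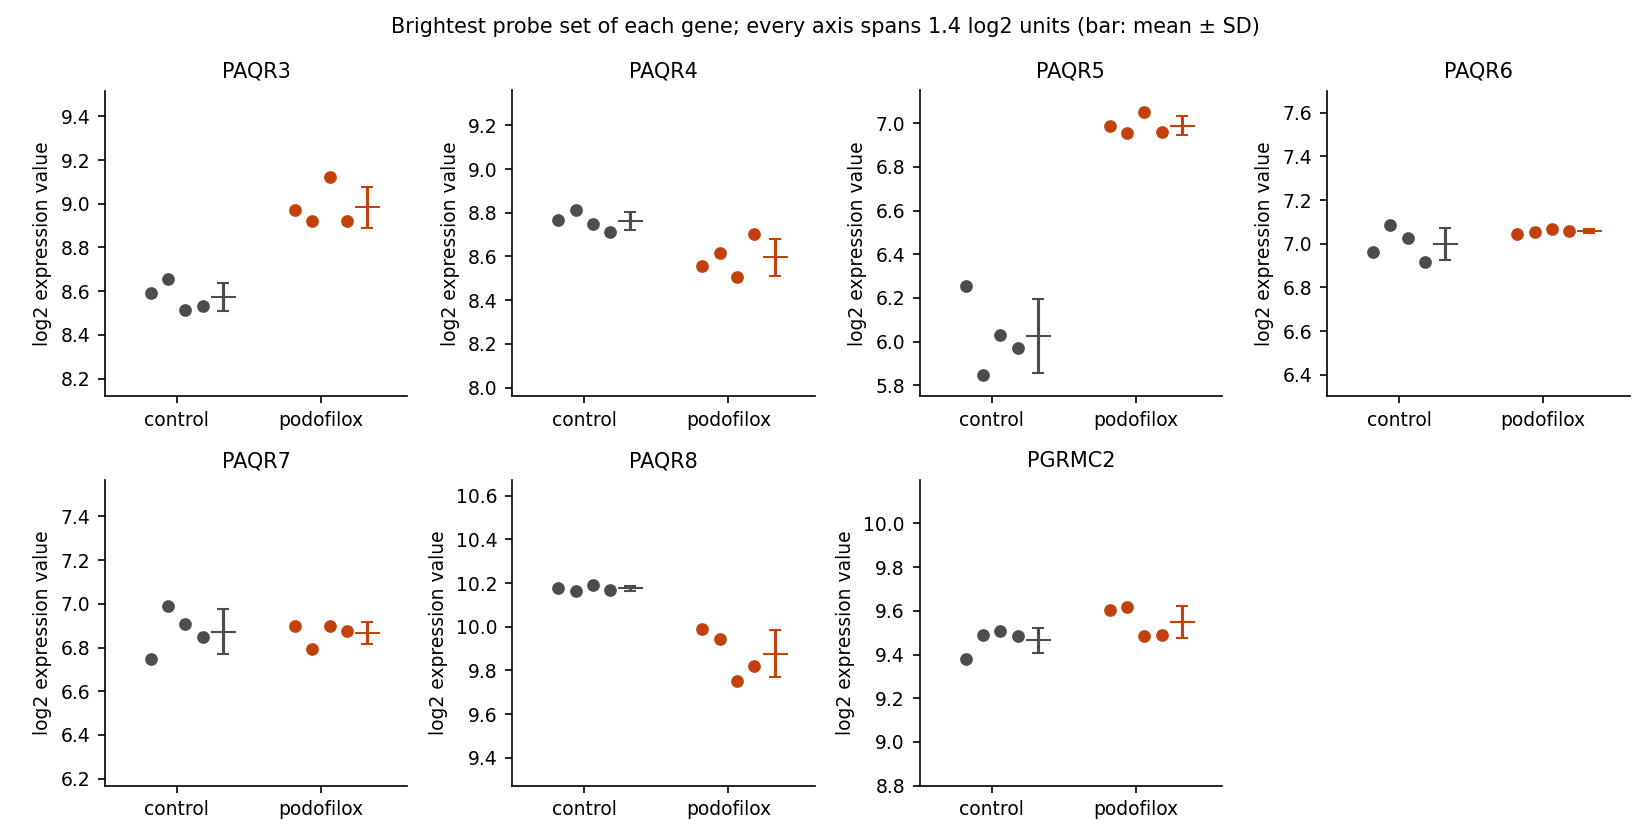
Log2 expression value (vertical axis, spanning 1.4 units in every panel) of the brightest probe set of each measured gene, with a point per array and the mean ± SD. PAQR5 and PAQR3 lie higher with podofilox, PAQR8 and by a smaller step PAQR4 lie lower, and the groups overlap for PAQR6, PAQR7 and PGRMC2.

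Of the 6 measured genes other than PAQR5, 1 rose and 2 fell (PAQR4 counted), where over all genes 8.55% rose, 12.5% fell and 21.0% did either. The median difference of these 6 genes was 0.03, against 0.01 over all genes. The groups did not overlap for 3 of the 6, and for 26.2% of all genes. Counted by probe set, 4 of the 22 outside PAQR5 rose, 3 fell and 15 did not pass, where 7.83% of all probe sets rose, 10.2% fell and 18.0% did either. On 8 of these 22 probe sets, 4 in each direction, the groups did not overlap, as on 24.2% of all probe sets. Probe sets of 1 gene share their transcripts and are not independent. With so few genes, these counts are a description and show nothing particular to the family. All 7 called probe sets outside PAQR5 belonged to PAQR3, which was higher, or PAQR8, which was lower.

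**Figure D3:**
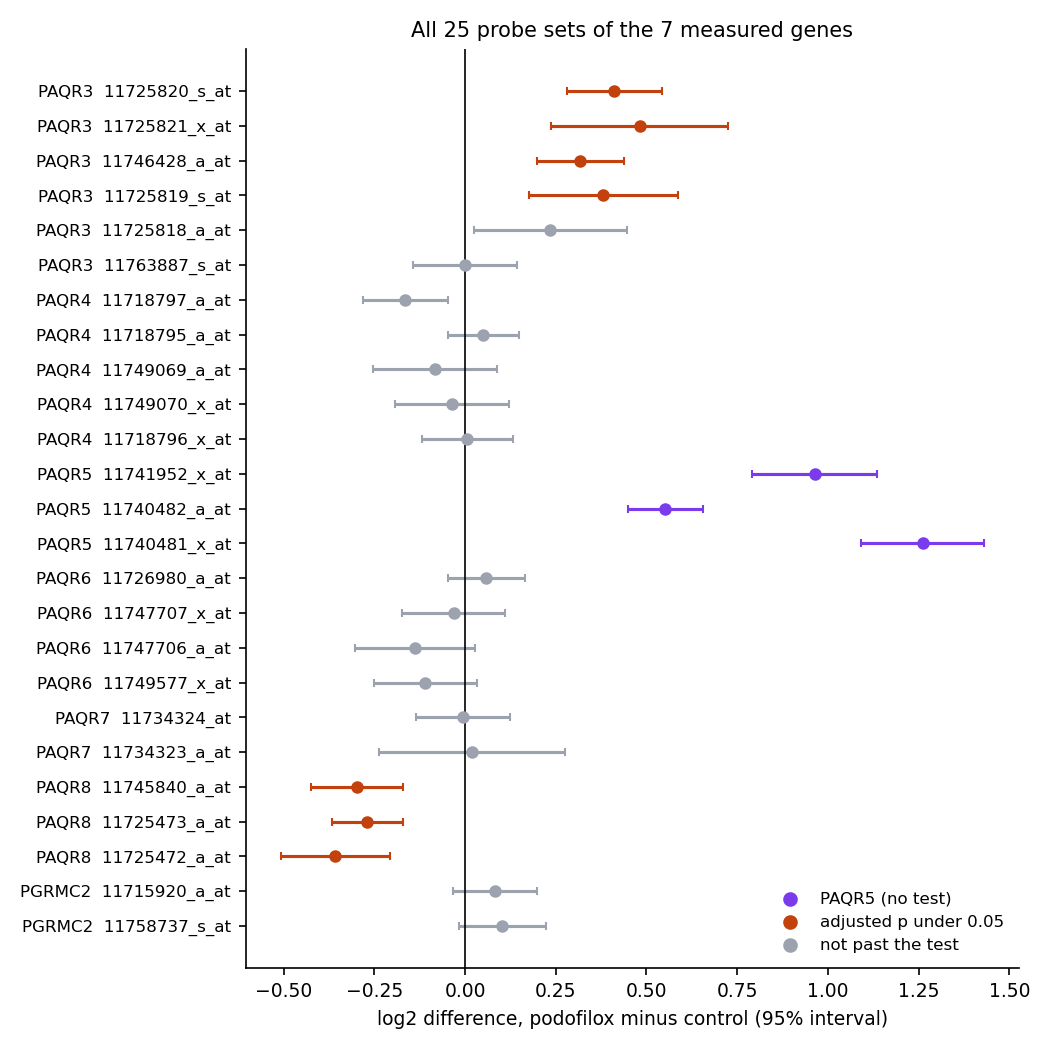
Log2 difference, podofilox minus control, with its 95% interval (horizontal axis) for all 25 probe sets, in order of brightness within each gene. The 3 PAQR5 probe sets, shown without a test, lie at 0.55 to 1.26, the called PAQR3 probe sets at 0.32 to 0.48 and the PAQR8 probe sets at -0.36 to -0.27.

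Among the other members of the PAQR family, MMD, also known as PAQR11, rose. Its level was 9.11 ± 0.066 on control arrays (SD, n = 4) and 9.43 ± 0.030 on podofilox arrays, 0.32 apart (SE 0.045, limma adjusted p = 0.000875), and its other probe set rose by 0.36. The call was lost among arrays 1 and 2 alone (0.33, adjusted p = 0.0651). PAQR9, the membrane progestin receptor epsilon, was at 6.11 ± 0.032 and 6.28 ± 0.19 and did not pass (0.18, limma adjusted p = 0.162). It did pass without podofilox array 3 (0.26, adjusted p = 0.0171) and with array weights (0.18, adjusted p = 0.0497). In all, 1 of the 4 measured genes of that list rose and 0 fell. Of the 2 other relatives of the PGRMC proteins, 0 rose and 0 fell. Over all genes 8.55% rose and 12.5% fell, so for so few genes these counts are no difference to read.

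Of 5 measured nuclear steroid receptor genes 0 rose and 0 fell, with a median difference of 0.14. PGR, the classical progesterone receptor, lay near the bottom of the scale, at 3.58 ± 0.13 in control cells and 3.57 ± 0.096 with podofilox, and 0 of its 4 probe sets changed. Of 14 measured genes of progesterone synthesis and metabolism, 2 rose and 0 fell, or 14.3% called against 21.0% of all genes, which for so few genes is no difference to read. Both belong to the aldo-keto reductases that inactivate progesterone: AKR1C1 rose by 0.51 (SE 0.081, limma adjusted p = 0.00190) and AKR1C2 by 0.27 (SE 0.058, limma adjusted p = 0.00814). AKR1C1 rose on both of its probe sets and lost the call among arrays 1 and 2 alone (0.39, adjusted p = 0.0537). AKR1C2 rose on 1 of its 3 probe sets and lost the call among arrays 3 and 4 alone (0.17, adjusted p = 0.154). These paralogs are nearly identical in sequence, so which of them the probes read is uncertain.

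The G proteins, adenylate cyclases and protein kinase A subunits through which membrane progestin receptors signal gave 0 rises and 2 falls among 17 genes. That is 11.8% called, where 8.55% of all genes rose and 12.5% fell. PRKACB, a catalytic subunit of protein kinase A, fell by 0.20 (SE 0.047, limma adjusted p = 0.0140) on the brightest of 4 probe sets, and the mean of its probe sets did not pass (-0.06, adjusted p = 0.327). ADCY3, an adenylate cyclase, changed by -0.17 (SE 0.051, limma adjusted p = 0.0448), a call lost in 12 of 19 alternatives, among them each fit without 1 array other than control array 1 and podofilox array 1.

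Of 5 measured partners of PGRMC1, 2 rose and 3 fell on their brightest probe sets, where 8.55% of all genes rose and 12.5% fell. The calls of EGFR and FECH were lost under other choices of probe set. EGFR, the epidermal growth factor receptor, rose by 0.65 (SE 0.046, limma adjusted p = 2.6e-05) on its brightest probe set, though only 4 of its 8 probe sets rose, and without _x_at and _s_at probe sets the call was lost (0.19, adjusted p = 0.0578). TMEM97, the sigma-2 receptor, fell by 0.47 (SE 0.050, limma adjusted p = 0.000205), on 4 of 5 probe sets. FECH, which inserts iron into heme, fell by 0.25 (SE 0.039, limma adjusted p = 0.00150), on 2 of 4 probe sets, and the mean of its probe sets did not pass (-0.10, adjusted p = 0.0991). The FECH call was also lost among arrays 1 and 2 alone (-0.27, limma adjusted p = 0.0647). The other calls, named after their values were seen, were INSIG1 (0.31) and SCAP (-0.19), which control sterol synthesis. The median difference of this list was -0.19.

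In the cascade that PAQR3 restrains and among the partners of PAQR4, 3 of 8 measured genes rose and 2 fell. Over all genes 8.55% rose and 12.5% fell. CDK4, the G1 kinase that PAQR4 has been described to stabilise, fell by 0.36 (SE 0.045, limma adjusted p = 0.000506), on all 4 of its probe sets. PEBP1, another inhibitor of RAF signalling, fell by 0.31 (SE 0.047, limma adjusted p = 0.00141). SKP2, a ubiquitin ligase subunit, rose by 0.21 (SE 0.044, limma adjusted p = 0.00802) on the brighter of its probe sets and fell by 0.43 on the dimmer, so its direction is not settled. Arrays 1 and 2 alone lost the calls of CDK4 (limma adjusted p = 0.0508), PEBP1 (0.0537) and SKP2 (0.0723). Arrays 3 and 4 alone also lost that of SKP2 (limma adjusted p = 0.142). The remaining rises, named after their values were seen, were the scaffold KSR1 and the kinase MAP2K1, by 0.21 each. Over the 7 lists together 8 of 55 measured genes rose and 7 fell, or 27.3%, against 21.0% of all genes.

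**Figure D4:**
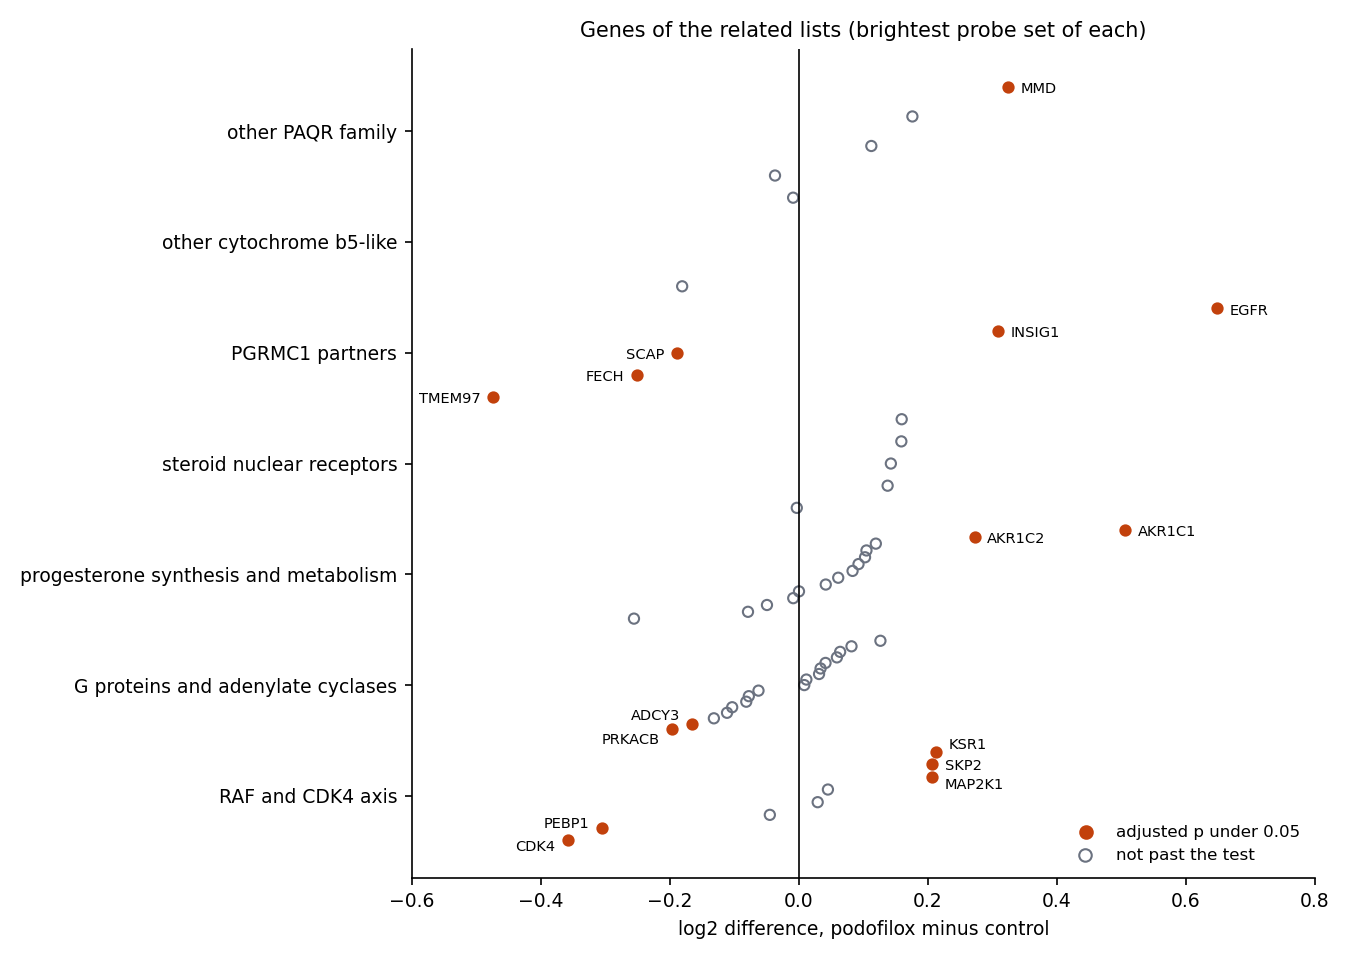
Log2 difference, podofilox minus control (horizontal axis), of each measured gene of the 7 related lists, read from its brightest probe set; filled points passed the test and are named. The called genes lie on both sides of 0, from TMEM97 (-0.47) to EGFR (0.65).

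The genes on either side of PAQR5 in the RefSeq gene table did not pass the test over all genes and arrays. GLCE, an enzyme of heparan sulfate synthesis, differed by 0.23 (SE 0.081, limma adjusted p = 0.0760) on its single probe set, by 0.09 among arrays 1 and 2 and 0.37 among arrays 3 and 4. It passed in 4 of 19 alternatives: with the filter at the median signal (adjusted p = 0.0316), with robust estimation and an intensity trend (0.0329), with array weights (0.0148) and without control array 2 (0.0496). KIF23, a mitotic kinesin, differed by -0.11 (SE 0.077, limma adjusted p = 0.363), and its other probe set by 0.09.

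The 5 genes with the profile nearest to that of PAQR5 were DDIT4, KLF9, LIPH, COX6B2 and PLAUR. Nearness was the root mean square difference over the 8 arrays after each gene was centred on its control mean, and it was 0.13 to 0.14 for these 5 against a median of 0.69 over all other genes. Since PAQR5 was selected on its rise, a near profile is first of all a rise of like size, and no test is attached to it. DDIT4, which restrains mTORC1 signalling under stress, went from 9.19 ± 0.072 to 10.10 ± 0.054 (SD, n = 4 each). KLF9, a transcription factor known to respond to steroid hormones, went from 7.29 ± 0.021 to 8.18 ± 0.077, and its next probe set rose by 0.81 while 2 dim ones did not pass. LIPH, a phospholipase, went from 8.83 ± 0.035 to 9.75 ± 0.075, with all 3 probe sets higher. COX6B2, a testis form of a cytochrome oxidase subunit, and PLAUR, the urokinase receptor, differed by 0.83 and 0.93. The other COX6B2 probe sets gave smaller differences, 0.58 and 0.26, and the 0.83 is from one of the _x_at kind. All 5 PLAUR probe sets were higher, by 0.59 to 0.95.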

How the data were processed

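The deposited table holds log2 expression values that the authors made with RMA, per the submitters' processing notes. The RMA software and its options are not given in those notes, and the range of 2.64 to 15.02 shows the log2 scale. The table was used without detection calls, and precision is limited by there being 4 arrays a group. Of 49395 probe sets, 44988 had 1 gene in the platform annotation, 1832 had several, 2473 were unnamed here and 102 were controls. Each gene was read from its brightest single-gene probe set. Podofilox was compared with control with lmFit and eBayes of limma 3.58.1 (R 4.3.3), on all 8 arrays, with group alone in the model and no intensity filter, once over 18132 genes and once over all single-gene probe sets. "Rose" and "fell" mean a two-sided Benjamini-Hochberg adjusted p under 0.05 over all genes (or all probe sets where probe sets are counted). The fit was also run on simulated data with independent noise and known changes. That setting has no effects shared by an array or batch, so it does not vouch for the calls made here. Gene names came from the platform annotation, 44961 probe sets matched RefSeq (GRCh38.p14) by Entrez identifier, and 0 symbols changed.

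The members, the related gene lists and the alternatives were chosen with earlier results of these data known. Named were all members, up to 3 called genes of each list with the smallest p, called cell type markers, PGR, PAQR9, MMD, the nearest protein-coding gene on either side of PAQR5 and the 5 nearest profiles; LYZ and the keratins were named after their values were seen. Alternatives were the mean of probe sets per gene, no _x_at or _s_at probe sets, a filter at the median signal, a second quantile normalization, a second centring on medians, array weights, robust estimation with a trend on intensity, the replicate number or the pair of array numbers (1 and 2 against 3 and 4) as a term, each pair alone, and each array left out. Plots were made in Python 3.11.15 with matplotlib 3.10.9.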

Additional observations from a re-analysis of the deposited data

Results flagged for a closer look

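In 6 of 96 groups of 4 arrays, over the members' probe sets and the other named genes, 1 array lay far from the others relative to the group's range; chance flags about 1 in 20 such groups. Podofilox array 1 was highest for PAQR3 probe set 11725819_s_at, at 7.87 against 7.39 to 7.47. Podofilox array 3 was lowest for PAQR4 probe set 11749070_x_at, at 7.61 against 7.89 to 7.93. Control array 1 was lowest for PGRMC2 probe set 11715920_a_at, at 9.38 against 9.49 to 9.51. Among the other genes, podofilox array 4 was highest for CDH5 (4.85 against 4.78), podofilox array 1 was lowest for PEBP1 (10.47 against 10.59 to 10.60) and control array 1 was lowest for TMEM97 (10.63 against 10.71 to 10.72).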

How the results depend on the processing

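PAQR5 stayed positive in all 18 alternatives that kept it (0.55 to 1.04). Since it was selected on its rise on these arrays, that sign was all but fixed beforehand and is no support. The difference moved by more than the replicate SD of PAQR5 in 1, without _x_at and _s_at probe sets (0.55). The filter at the median signal removed PAQR5 and PAQR7. PAQR3 passed in all 19 alternatives (0.30 to 0.50) and PAQR8 in 18. The count of fallen genes besides PAQR5 went from 2 to 1, by the loss of PAQR4, with the mean of probe sets, without _x_at and _s_at probe sets, on quantile normalization or centring once more, with array weights, the pair of array numbers as a term, the replicate block, or arrays 3 and 4 alone, to 0 with arrays 1 and 2 alone, and ranged from 1 to 2 with 1 array left out. Related genes that rose numbered 15 with array weights, 2 within arrays 1 and 2 and 5 within arrays 3 and 4, and those that fell 1 and 4 within these pairs, where fewer arrays were fitted. Over all genes, 1550 rose and 2260 fell; array weights gave 2406 and 2869, arrays 1 and 2 gave 468 and 542, and arrays 3 and 4 gave 905 and 1395. SKP2 reversed to -0.11 with the mean of its probe sets. Deviations of same-numbered arrays from their group means correlated at -0.24 to 0.09 between the groups. With 4 arrays a group this cannot show whether same-numbered arrays were paired, and the labels do not say. The replicate block gave 1116 rises and 1625 falls and kept PAQR3 (0.41, limma adjusted p = 0.00892) and PAQR8 (-0.30, limma adjusted p = 0.0187). Except where stated, the cause of a change was not tested. The low signal of PAQR5, PGR and PAQR9 limits what can be read of them.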
